A study of Sus scrofa with 11 samples.

Results

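The 137 rows described here are the immunoglobulin and T cell receptor gene segments of the pig genome that carry an antigen receptor biotype in the deposited expression table. They were taken from 30376 gene rows because their biotype reads V_segment, for a variable segment (121 rows), or C_region, for a constant region (16 rows). The description and chromosome of each row placed 26 in the immunoglobulin heavy chain locus (17 variable and 9 constant rows, all on scaffolds not joined to a chromosome), 33 in the kappa light chain locus (all labelled variable, 6 on chromosome 3 and 27 unplaced) and 6 in the lambda light chain locus (4 variable and 2 constant rows on chromosome 14). A further 51 variable rows belonged to the T cell receptor alpha and delta locus (47 on chromosome 7 and 4 unplaced), 17 rows to the beta locus on chromosome 18 (16 variable and 1 constant), and 4 constant rows to the gamma locus on chromosome 9. In all, 65 rows were immunoglobulin and 72 were T cell receptor rows. At least 1 read fell on 117 of them in some wound, and 20 were listed at 0 in every wound.

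The RNA came from full-thickness skin wounds excised at day 10, and the comparison asks how diabetes changes the tissue of a healing wound. The 7 diabetic wounds were from 1 female Yucatan minipig that received an intravenous infusion of streptozotocin, a toxin of insulin-producing beta cells, at 6 months of age and was wounded 60 days later. It was given insulin until a week before wounding. The 4 non-diabetic wounds were from 1 female Yucatan minipig that was not made diabetic and was wounded in the same way. Every spread below is therefore between wounds of 1 animal, and diabetes cannot be told apart from any other difference between the 2 minipigs. The library names also end in a code that differs between the groups. Its meaning is not given, and any difference it marks cannot be told apart from diabetes either.

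An antibody is built from heavy chains paired with kappa or lambda light chains, and a T cell receptor from an alpha and a beta or from a gamma and a delta chain. Each lymphocyte joins 1 variable segment to a short joining segment, with a diversity segment between them in heavy, beta and delta chains, and the joined exon is spliced to a constant region. The heavy chain constant region sets the antibody class: IgM and IgD on B cells that have not switched, IgG as the main class of serum, IgA in secretions and IgE in allergy. Plasma cells secrete antibody and carry very large amounts of these transcripts, which makes them visible in a tissue where such cells are rare.

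Reads on genes numbered from 28314785 to 40168372 per wound (median 33516206), so that 3 reads on a row of 500 bases corresponded to between 0.134 and 0.233 FPKM, the fragment count scaled by the length of the row and the depth of the library. Diabetic wound 4 and non-diabetic wound 1 stood apart from the other 9 on the first principal component, which held 44.5% of the variance. Their summed keratinocyte markers were 33.1 and 243 FPKM against 1217 to 6027 elsewhere, and their summed neutrophil markers 21.4 and 136 FPKM against 1515 to 5353. Diabetic wound 3 held 1152 FPKM of skeletal muscle markers, which reached at most 0.127 FPKM in any other wound. Calls that were lost without diabetic wound 4 and non-diabetic wound 1 are named with the results.

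Sequence around these rows was read from Sscrofa11.1, the build of the deposited coordinates, because it shows what identifies a receptor segment and how alike the rows are. Upstream of an immunoglobulin variable segment lies the octamer ATGCAAAT, bound by OCT factors and their B cell coactivator POU2AF1. It was searched on both strands from 250 bases before to 50 bases after the first exon's start and was present for 49 of 54 immunoglobulin variable rows, for 0 of 67 T cell receptor variable rows, and for 565 of 30357 such windows over all genes (1.86%). All 16 heavy rows that held it had it in the forward direction, and all 30 kappa and 3 lambda variable rows had its reverse complement ATTTGCAT. The 30-base windows of the rows that lead the heavy, kappa and lambda results below are shown 5′ to 3′ with the octamer in capitals, and the first exon begins within or shortly after each of them:
LOC110258662 (heavy): actaggaggccATGCAAATgggttcctccc
LOC110258831 (heavy): actaggaggccATGCAAATaggttcctccc
LOC100736878 (kappa, chr3:57234794-57234823, plus strand): cccaccaggggATTTGCATgctgtccccta
LOC110258689 (kappa): tccccctgctgATTTGCATgtttccagagg
LOC110258690 (kappa): tccccctgctgATTTGCATgtttccagagg
LOC102167466 (lambda, chr14:48828666-48828695, plus strand): gcaggaagctgATTTGCATgaaggccctgc
Rows without a position lie on unplaced scaffolds. The windows of LOC110258689 and LOC110258690 were identical.

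Beyond the coding exon lies the recombination signal, a heptamer and a nonamer separated by a spacer, which the RAG recombinase cuts to join the segment. The heptamer CACAGTG followed, after 11 to 13 or 22 to 24 bases, by the nonamer ACAAAAACC with at most 2 mismatches was searched in the 1000 bases from the start of each row's first exon. It was found for 15 of 17 heavy variable rows, all with a long spacer (23 bases in 13), for 22 of 33 kappa rows, all with a short spacer (12 bases in 21), and for all 4 lambda variable rows with a spacer of 23 bases. Of the T cell receptor variable rows 21 of 67 held it, each with a spacer of 23 bases, and 126 of 30371 windows over all genes did (0.415%). Some T cell receptor rows have a first exon longer than the searched 1000 bases, such as LOC102161747 with 2830 bases. A signal beyond the window would be missed, so 21 of 67 is a minimum. The signals of the same leading rows are given with the heptamer and nonamer in capitals, to show the 2 spacer lengths:
LOC110258662 (heavy): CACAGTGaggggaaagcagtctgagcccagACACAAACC
LOC110258831 (heavy): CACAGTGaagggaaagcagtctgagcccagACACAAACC
LOC100736878 (kappa, chr3:57235655-57235682, plus strand): CACAGTGatacagcccttaACACAAACC
LOC110258689 (kappa): CACAGTGttacaggccatcACAAAAACC
LOC102167466 (lambda, chr14:48829238-48829276, plus strand): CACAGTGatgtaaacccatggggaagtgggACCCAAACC

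Many variable rows are close copies, which limits how reads could be divided among them. Among 14 heavy variable rows whose coding exon could be compared, pairwise identity ran from 87.6% to 98.7%, and 12 had a copy at 95% identity or more. Among 20 kappa rows 17 had such a copy. The variable exon of LOC100736878 was identical over 313 bases to that of LOC110258179 on another scaffold, and LOC110258689, LOC110258690 and LOC110258705 were 98.3% identical to each other. Values of single variable rows are therefore uncertain where a copy exists, and sums over a locus are given first.

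Immunoglobulin transcripts were far more abundant in the diabetic wounds. The summed level of the 65 immunoglobulin rows was 958 FPKM in the lowest diabetic wound, 3781 in the median and 5589 in the highest, and 60.7, 246, 308 and 134 FPKM in non-diabetic wounds 1 to 4. The groups did not overlap, and the ratio of their means (3345 ± 1766, SD, n = 7, against 187 ± 111, SD, n = 4) was 17.9. These rows took up 0.130% to 0.553% of the reads on genes in the diabetic wounds and 0.00651% to 0.0445% in the non-diabetic wounds. The 72 T cell receptor rows summed to 7.53 to 22.98 FPKM (median 10.9) in the diabetic wounds and to 3.79, 7.04, 9.90 and 11.11 FPKM in the non-diabetic wounds, which overlapped. In bulk tissue, fewer cells of a type and less RNA per cell cannot be told apart. The sums describe the rows together and were not tested.

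Heavy, kappa and lambda rows each separated the groups. The 9 heavy constant rows summed to 428 to 2562 FPKM in diabetic wounds (median 1774) and to 24.4, 92.8, 128 and 60.3 FPKM in non-diabetic wounds. The kappa rows summed to 446 to 2799 FPKM (median 1601) against 27.1, 105, 124 and 60.9 FPKM, and the lambda rows to 72.3 to 523 FPKM (median 184) against 7.67, 40.8, 45.6 and 11.3 FPKM. The lowest diabetic wounds for all 3 loci were wounds 1 and 2, while non-diabetic wound 1 was lowest and wound 3 highest in its group. Only the 17 heavy variable rows overlapped in sum, at 8.82 to 56.3 FPKM (median 21.5) against 1.48, 7.31, 9.64 and 1.31 FPKM, through diabetic wound 1 and non-diabetic wound 3. As a share of the reads on genes, a scale that does not weight short rows more, the heavy variable rows did not overlap, at 0.000660% to 0.00299% in diabetic and 8.06e-05% to 0.000637% in non-diabetic wounds.

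**Figure D1:**
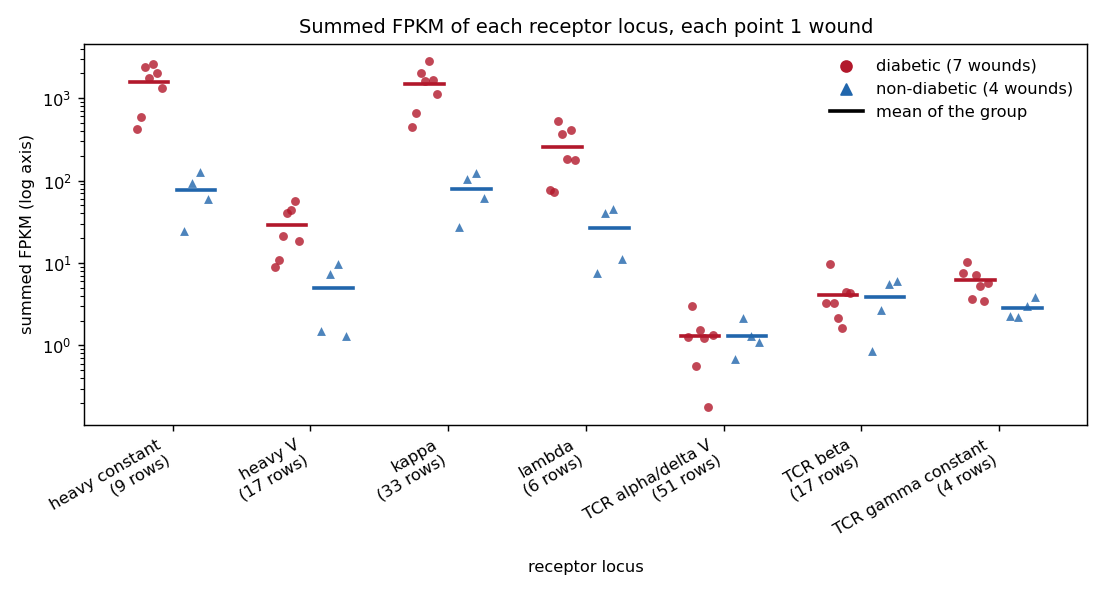
Summed FPKM of the rows of each receptor locus (log axis), each point 1 wound, with 7 diabetic and 4 non-diabetic wounds and the group mean as a bar. Heavy constant, kappa and lambda rows lie higher in every diabetic wound, heavy variable rows overlap at 8.82 and 9.64 FPKM, and the 3 T cell receptor loci overlap.

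Of all 13956 genes tested, 188 were called higher in diabetic wounds (1.35%) and 231 lower (1.66%), or 3.00% in either direction, where a call needed an adjusted p below 0.05 and a log2 fold change beyond 0.5 in size on the log2(FPKM + 0.5) scale. Of the 137 receptor rows 41 passed the level filter (FPKM of at least 0.5 in 4 or more wounds), and 19 of them were called higher and 0 lower, all 41 having a fold change above 0 (34 at an unadjusted p below 0.05). All 19 were immunoglobulin rows: 4 constant and 1 variable row of the heavy chain, 9 kappa rows, and 2 constant and 3 variable lambda rows. Of the 4 T cell receptor rows tested limma called 0, with 2 at an unadjusted p below 0.05 and 0 called by voom on recovered reads. A row that passes the filter only through the diabetic wounds had to be higher there, which held for 15 of the 41 tested and 5 of the 19 called rows. The remaining 96 rows, 28 immunoglobulin and 68 T cell receptor rows, were too low for the test.

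The 41 tested rows had a median log2 fold change of 1.70, against 0.01 over all tested genes. Receptor rows made up 8 of the 10 and 14 of the 20 largest log2 fold changes in the table. In 21 of the 41 tested rows every diabetic wound exceeded every non-diabetic wound, a pattern that 2.69% of all tested genes showed, and 0 rows had the opposite pattern (2.96% of tested genes). Over all 137 rows the number was 22. The median, the ranks and the separated rows include the 15 tested rows that passed the level filter only through the diabetic wounds. Those rows had to be higher there, so for them the direction is no result. The count of called rows depended on the non-diabetic wounds: it was 11 without non-diabetic wound 1, 12 without wound 3 or without wound 4, and 10 without diabetic wound 4 and non-diabetic wound 1 together. The 9 rows not called without that pair of wounds were LOC110258838 of the heavy chain, the kappa rows LOC110258705, LOC110258690, LOC110258179 and LOC110258328, and the lambda rows LOC102167466, LOC102158332, LOC110256717 and LOC100623458, the last of them below the level filter there. Voom on recovered reads called 10 of the 19 rows and not LOC110258838, the kappa rows LOC110258394, LOC110258705, LOC110258690, LOC110258447, LOC110258179 and LOC110258328, or the lambda rows LOC102167466 and LOC110256717. In all 11 fits that left out 1 wound, 11 of the 19 rows stayed called: 4 heavy constant rows, 5 kappa rows and 2 lambda rows.

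**Figure D2:**
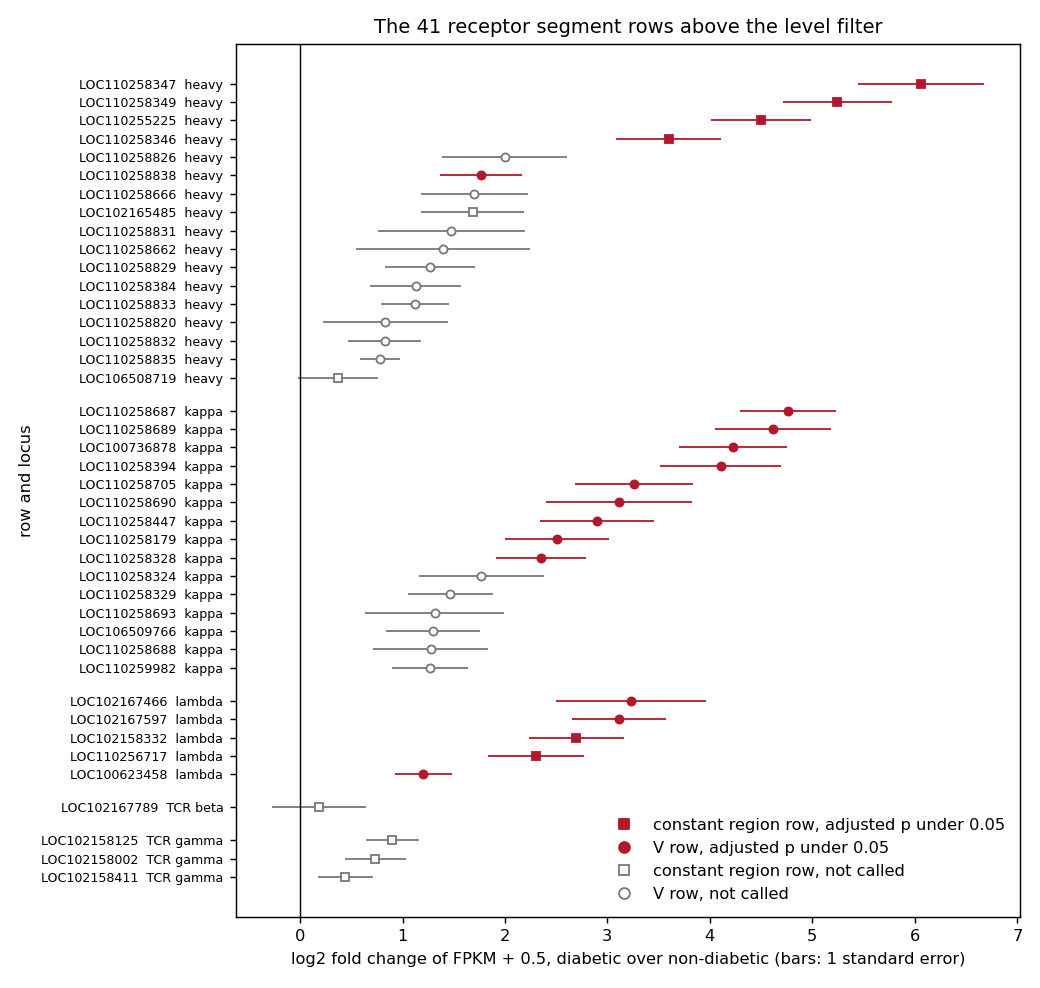
Log2 fold changes (diabetic over non-diabetic, on FPKM + 0.5) of the 41 receptor rows above the level filter, with bars of 1 standard error. All 41 lie above 0, from 0.18 for the T cell receptor beta constant row to 6.06 for a gamma heavy constant row, and the 19 filled symbols passed the test. Of the 41 rows, 15 passed the level filter only through the diabetic wounds and had to be higher there.

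The heavy chain constant rows are annotated within one stretch of an unplaced scaffold, and the IgG rows accounted for nearly all of the difference. LOC110258347, described as heavy constant gamma 2, was at 219 FPKM in the lowest diabetic wound, 1099 in the median and 1817 in the highest, and at 6.25, 17.1, 16.5 and 7.74 FPKM in non-diabetic wounds 1 to 4. The lowest diabetic wound held over 10 times the level of the highest non-diabetic wound. Its log2 fold change was 6.06 ± 0.62 (SE, adjusted p = 0.000406), the largest of any gene tested. LOC110258349, described as an Ig gamma-3 constant region, was at 59.96 to 342 FPKM (median 285) against 1.84, 8.05, 6.98 and 4.58 FPKM, a log2 fold change of 5.24 ± 0.53 (adjusted p = 0.000406).

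Both rows described as heavy constant gamma 4 also rose. LOC110258346 was at 86.3 to 518 FPKM (median 236) in diabetic wounds and at 6.54, 16.2, 31.6 and 32.9 FPKM in non-diabetic wounds, which gave a log2 fold change of 3.60 ± 0.51 (adjusted p = 0.00342). LOC110255225 was much less abundant, at 5.70 to 42.2 FPKM (median 16.9) against 0.227, 0.0765, 0.746 and 0.291 FPKM (log2 fold change 4.499 ± 0.49, adjusted p = 0.000663). For all 4 of these gamma rows the groups were fully separated. The other gamma rows, LOC110258348 and LOC110258369, never exceeded 0.159 and 0.709 FPKM and were below the filter (exact permutation p = 0.194 and 0.958, two-sided).

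None of the rows of the other classes was called. LOC102165485, described as immunoglobulin alpha-2 heavy chain, was at 50.4 to 126 FPKM (median 77.7) in diabetic wounds and at 7.76, 44.96, 65.02 and 13.5 FPKM in non-diabetic wounds. Non-diabetic wounds 2 and 3 lay near the lower diabetic wounds and the groups overlapped, with a log2 fold change of 1.68 ± 0.50 that did not pass the test (adjusted p = 0.0958). This row may not count IgA transcripts alone. Its first exon, 1531 of its 2827 bases, lies at positions 3772920 to 3774450, on the far side of the delta row from its remaining exons, where the mu constant region of a mammalian heavy chain locus is found. No row is described as mu, and the sequence of this exon was not compared with a mu constant region. Whether mu transcripts add to this value was not tested, so it cannot be read as IgA alone.

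LOC106508719, the delta heavy chain of IgD, was at 3.23 to 5.98 FPKM (median 4.26) in diabetic wounds and at 1.65, 6.31, 6.87 and 1.25 FPKM in non-diabetic wounds. The highest values of both groups were of like size (log2 fold change 0.37 ± 0.39, adjusted p = 0.669). LOC102163090, the epsilon constant region of IgE, did not exceed 0.335 FPKM in any wound (exact permutation p = 0.0485, two-sided, unadjusted).

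**Figure D3:**
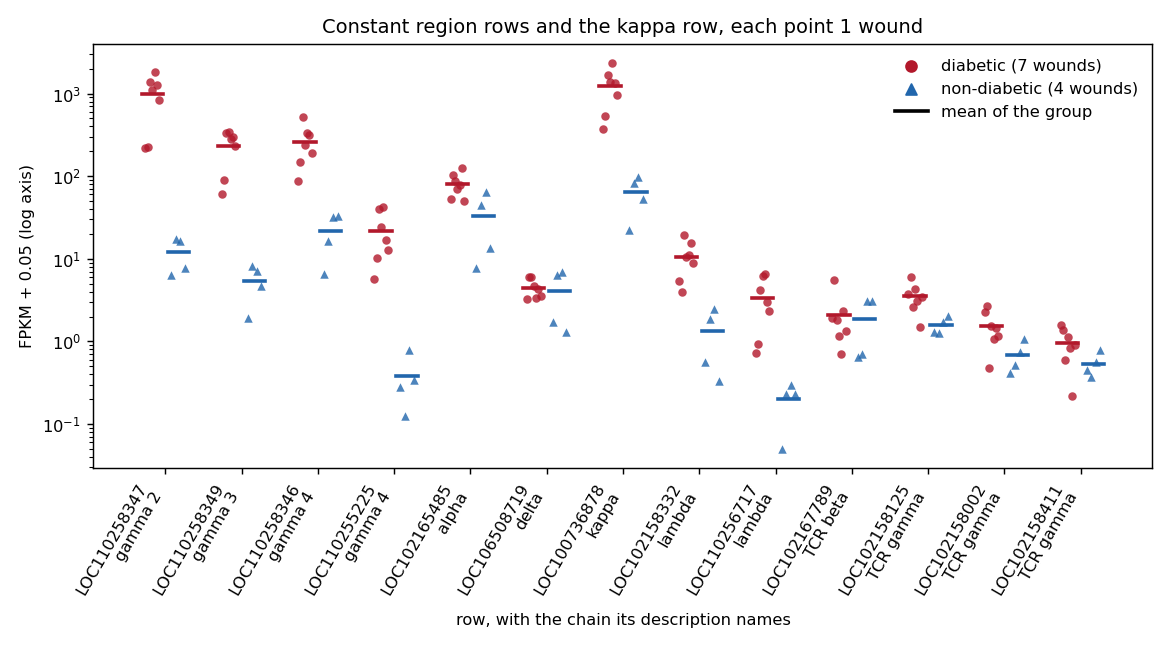
FPKM (0.05 added, log axis) of the 12 tested constant region rows and of the kappa row that carries the constant exon, each point 1 wound, with the group mean as a bar. The 4 abundant gamma rows, the kappa row and the lambda constant rows separate the 7 diabetic from the 4 non-diabetic wounds, whereas the alpha, delta and T cell receptor rows overlap.

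Within the heavy constant rows the composition differed as well as the amount. The 6 gamma rows made up 81.1% to 96.8% of the summed heavy constant FPKM in diabetic wounds (median 95.8%) and 61.4%, 44.7%, 44.0% and 75.5% in non-diabetic wounds. The alpha row made up 3.03% to 17.9% in diabetic wounds and 31.9%, 48.5%, 50.6% and 22.5% in non-diabetic wounds, and the delta row 0.130% to 1.02% against 6.76%, 6.80%, 5.35% and 2.07%. None of the 3 shares overlapped between groups. Diabetic wounds 1 and 2, which held the least immunoglobulin in their group, also had its smallest gamma shares. By reads in place of FPKM the gamma share averaged 86.4% ± 9.58 (SD, n = 7) against 40.8% ± 14.8 (SD, n = 4), since the alpha row is longer (2827 bases) than the gamma rows (1218 to 2444 bases).

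The gamma rows also differed among themselves. LOC110258347 supplied 47.3% to 73.3% of gamma FPKM in diabetic wounds and 41.8%, 41.2%, 29.1% and 16.999% in non-diabetic wounds, and LOC110258346 supplied 13.5% to 31.7% against 43.7%, 39.1%, 55.9% and 72.3%. Neither share overlapped between groups. The share of LOC110258349 did overlap, at 11.5% to 20.1% against 12.3%, 19.4%, 12.4% and 10.1%. In every diabetic wound LOC110258347 was the most abundant gamma row, and in non-diabetic wounds 1, 3 and 4 it was LOC110258346. These shares are a description of the wounds of 1 animal a group and were not tested.

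The hinge exon, which joins the 2 arms of an IgG molecule to its stem, is shown because its length differs among these rows. It is given in capitals with 8 bases of intron on either side in lower case, each on the minus strand of the unplaced scaffold that holds the locus:
LOC110258347: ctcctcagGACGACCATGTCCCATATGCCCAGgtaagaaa
LOC110258349: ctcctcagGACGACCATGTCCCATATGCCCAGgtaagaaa
LOC110258346: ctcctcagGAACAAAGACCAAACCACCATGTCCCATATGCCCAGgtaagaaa
LOC110255225: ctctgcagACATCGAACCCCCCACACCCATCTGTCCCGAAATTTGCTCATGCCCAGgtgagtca
The exon was 24 bases and identical in LOC110258347 and LOC110258349, 36 bases in LOC110258346 and 48 bases in LOC110255225. In the exon after the hinge the first 3 of these rows were 96.0% to 97.2% identical, and LOC110255225 was 88.2% to 89.1% identical to them. Reads from the shared stretches could not be assigned to 1 row with certainty, so the shares of the 3 alike rows are uncertain to that extent.

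**Figure D4:**
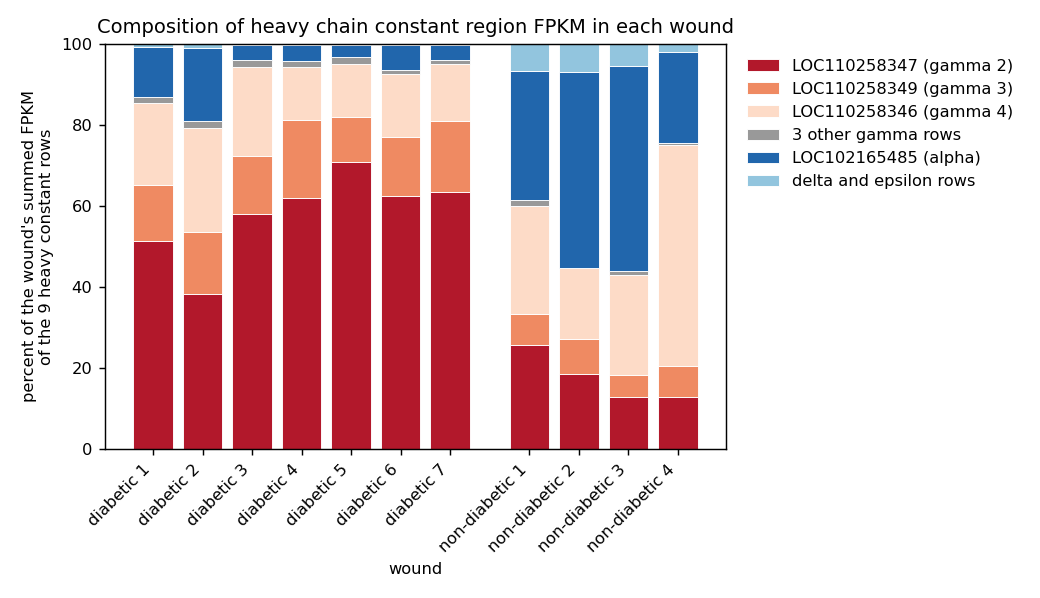
Percent of each wound's summed heavy constant FPKM that fell on each row or class, stacked to 100 for the 7 diabetic and 4 non-diabetic wounds. Gamma rows fill at least 81.1% of every diabetic bar, and the alpha row fills 22.5% to 50.6% of the non-diabetic bars.

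Kappa was the more abundant light chain in every wound, and 1 row held most of it. LOC100736878 (chromosome 3, 57214388 to 57321338) carries the variable label, but its 4 exons include the constant exon of 522 bases beside a leader, a variable and a joining exon, so it counts kappa transcripts of any variable segment. It was at 375 FPKM in the lowest diabetic wound, 1337 in the median and 2325 in the highest, and at 22.004, 81.6, 98.9 and 53.2 FPKM in non-diabetic wounds 1 to 4. The groups were separated (log2 fold change 4.23 ± 0.53, adjusted p = 0.00139). The row made up 79.6% to 87.3% of kappa FPKM in diabetic wounds and 77.9% to 87.3% in non-diabetic wounds.

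The variable rows of kappa on unplaced scaffolds rose with it. LOC110258687 was at 15.5 to 74.6 FPKM (median 25.2) in diabetic wounds and at 0.0794, 1.14, 0.653 and 1.23 FPKM in non-diabetic wounds, with the largest log2 fold change of the locus (4.76 ± 0.47, adjusted p = 0.000345). LOC110258689 was at 17.8 to 144 FPKM (median 47.6) against 0.701, 3.56, 2.31 and 1.64 FPKM (log2 fold change 4.61 ± 0.57, adjusted p = 0.00131). LOC110258394 was at 2.57 to 25.3 FPKM (median 15.3) against 0.0657, 0.562, 0.135 and 0.145 FPKM (log2 fold change 4.10 ± 0.59, adjusted p = 0.00367). These 3 rows did not overlap between groups.

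LOC110258705 and LOC110258690, near copies of LOC110258689, also rose, with smaller fold changes. LOC110258705 was at 10.5 to 88.9 FPKM (median 29.0) against 0.870, 4.94, 5.34 and 2.02 FPKM (log2 fold change 3.26 ± 0.58, adjusted p = 0.0119). It was not called by voom (adjusted p = 0.0598) or without diabetic wound 4 and non-diabetic wound 1 (adjusted p = 0.0584). LOC110258690 was at 15.1 to 134 FPKM (median 45.1) against 2.79, 10.96, 15.96 and 1.07 FPKM (log2 fold change 3.11 ± 0.71, adjusted p = 0.0351). Diabetic wound 1 lay below non-diabetic wound 3 in LOC110258690, and this row lost its call without any 1 of diabetic wounds 3, 5, 6 and 7 or non-diabetic wounds 1, 2 and 4. The other called kappa rows passed the level filter only through the diabetic wounds, so they had to be higher there. Among them LOC110258447 (2.90 ± 0.55, adjusted p = 0.0166) and LOC110258179 (2.51 ± 0.50, adjusted p = 0.0215) were near 0 in the non-diabetic wounds. Both of these lost their call without non-diabetic wound 1, 3 or 4.

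All 5 lambda rows that were tested rose too. Of these, 2 (LOC110256717 and LOC100623458) passed the level filter only through the diabetic wounds, so they had to be higher there. LOC102167466, the most abundant lambda variable row (chromosome 14, 48828678 to 48840546), was at 41.5 to 433 FPKM (median 135) in diabetic wounds and at 5.40, 32.8, 35.1 and 8.57 FPKM in non-diabetic wounds. The groups did not overlap but came close, with diabetic wounds 1 and 2 at 41.5 and 51.3 FPKM. Its log2 fold change of 3.23 ± 0.73 (adjusted p = 0.0344) kept its call only without diabetic wound 1 or 2 among the 11 fits that left out 1 wound. LOC102167597 was at 15.8 to 77.6 FPKM (median 32.2) against 1.75, 6.05, 7.57 and 2.26 FPKM (log2 fold change 3.12 ± 0.46, adjusted p = 0.00389).

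Of the lambda constant rows, LOC102158332 was at 3.87 to 19.1 FPKM (median 10.4) against 0.511, 1.84, 2.45 and 0.281 FPKM (log2 fold change 2.70 ± 0.46, adjusted p = 0.00959), and was not called without diabetic wound 4 and non-diabetic wound 1 (adjusted p = 0.0559). LOC110256717 was at 0.677 to 6.40 FPKM (median 2.98) against 0, 0.179, 0.245 and 0.183 FPKM (log2 fold change 2.30 ± 0.47, adjusted p = 0.0226). The latter lost the call without any 1 of the 4 non-diabetic wounds. The low variable row LOC100623458 (1.20 ± 0.28, adjusted p = 0.0388) kept its call only without diabetic wound 2, 6 or 7 among the fits that left out 1 wound, and it fell below the level filter without diabetic wound 1, 3, 4 or 5. LOC110256716 stayed at or under 0.112 FPKM everywhere. Kappa made up 79.6% to 93.8% of light chain FPKM in diabetic wounds and 78.0%, 71.9%, 73.2% and 84.4% in non-diabetic wounds, so the kappa share overlapped (85.3% ± 5.30, SD, n = 7, against 76.9% ± 5.64, SD, n = 4).

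The heavy variable rows with the segment biotype, which record which segment was joined, were low and differed from wound to wound. LOC110258838 was the only one called, at 1.04 to 6.57 FPKM (median 2.35) in diabetic wounds and 0.136, 1.04, 0.615 and 0.150 FPKM in non-diabetic wounds, for a change of 1.76 ± 0.40 (log2, adjusted p = 0.0347). The lowest diabetic and the highest non-diabetic wound nearly met, and the call was lost without diabetic wound 3 or 5 or non-diabetic wound 1, 3 or 4. LOC110258666 (1.70 ± 0.52, adjusted p = 0.104) was at 0.988 to 8.74 FPKM against 0.128, 1.23, 1.69 and 0.126 FPKM. LOC110258826 was at 0.162 to 8.01 FPKM against 1 read in all 4 non-diabetic wounds together and was not called (2.00 ± 0.61, adjusted p = 0.101).

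In other heavy rows 1 wound held most of the signal. LOC110258662 reached 33.7 FPKM in diabetic wound 6 and no more than 5.61 FPKM in any other diabetic wound, against 0.360, 1.49, 3.43 and 0 FPKM in non-diabetic wounds (1.39 ± 0.85, adjusted p = 0.425). LOC110258831 reached 14.6 FPKM in diabetic wound 4 and no more than 4.57 FPKM in the others, against 0.0506, 0.911, 1.21 and 0 FPKM (1.48 ± 0.72, adjusted p = 0.305). Of 29 immunoglobulin variable rows tested, 6 had over 50% of their summed diabetic FPKM in 1 wound, 4 of them heavy and 2 kappa rows.

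Shares were taken of the reads on the 17 heavy variable rows with the segment biotype. Heavy variable rows of other biotypes, some of them more abundant, are described below and are not in these shares. LOC110258662 took 50.7% of 848 reads in diabetic wound 6 (95% Wilson interval 47.3% to 54.1%) and 2.33% to 15.8% in the other diabetic wounds. LOC110258831 took 36.5% of 876 reads in diabetic wound 4 (33.4% to 39.8%). LOC110258666 led in diabetic wounds 1, 3 and 5 with 29.7%, 21.4% and 24.2%, and LOC110258838 led in diabetic wounds 2 and 7 with 17.8% and 29.0%. The leading row among these 17 thus differed among wounds of the same animal. In the non-diabetic wounds LOC110258662 led in wound 3 and LOC110258820 in wounds 2 and 4, and 3 rows tied at 5 of 27 reads in wound 1. The largest number of reads on these heavy variable rows in a non-diabetic wound was 210. The intervals cover counting error only, and reads of near copies may be divided among rows.

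Kappa variable use varied among near copies. Among kappa reads outside LOC100736878, LOC110258690 took 16.8% to 28.1% in diabetic wounds and 54.3%, 47.9%, 63.9% and 13.5% in non-diabetic wounds, and LOC110258689 took 18.7% to 40.4% against 13.6%, 15.5%, 9.19% and 20.5%. Non-diabetic wound 4 was unlike the other 3 in both rows, and both shares overlapped between groups. LOC110258394 took 4.02% to 22.01% in diabetic wounds and 2.47%, 4.74%, 1.04% and 3.51% in non-diabetic wounds. LOC110258693, a row chosen after its values were seen, took 7.56% (6.56% to 8.69%) in diabetic wound 7 and at most 0.569% in the other diabetic wounds.

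**Figure D5:**
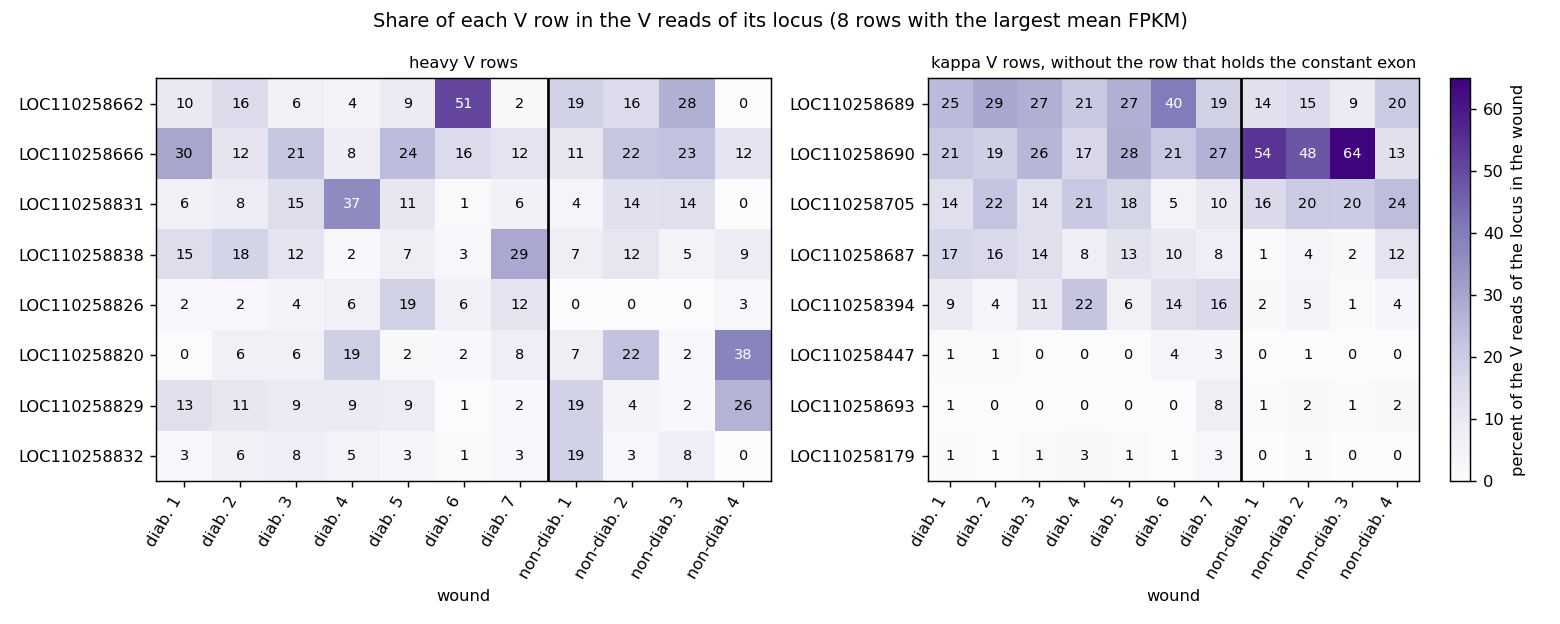
Percent of the reads on variable rows with the segment biotype, in the heavy locus and in the kappa locus (without LOC100736878), that fell on each of the 8 rows with the largest mean FPKM, by wound. Variable rows of other biotypes are not included. Diabetic wound 6 stands out at 50.7% for LOC110258662, diabetic wound 4 at 36.5% for LOC110258831, and non-diabetic wounds 1 to 3 at 47.9% to 63.9% for LOC110258690.

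T cell receptor rows were low in both groups and none was called. LOC102167789, the beta constant row (chromosome 18, 7431310 to 7474188), was at 0.662 to 5.45 FPKM (median 1.77) in diabetic wounds and at 0.591, 0.650, 3.02 and 3.02 FPKM in non-diabetic wounds. Its highest value was that of diabetic wound 2, and the groups overlapped throughout (log2 fold change 0.18 ± 0.46, adjusted p = 0.879). The sign of that value turned in 5 alternative fits. The 16 beta variable rows gave 8 to 269 reads a wound in all, and none exceeded 1.10 FPKM (LOC102158691, diabetic wound 7).

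The gamma chain of the T cell receptor, used by gamma delta T cells that are numerous in pigs, had 4 constant rows. LOC102158125 was at 1.46 to 5.89 FPKM (median 3.38) in diabetic wounds and at 1.25, 1.23, 1.66 and 1.95 FPKM in non-diabetic wounds. Only diabetic wound 6 lay within the non-diabetic range (log2 fold change 0.90 ± 0.26, adjusted p = 0.0892), and the row passed the test when that wound was left out. LOC102158002 (0.74 ± 0.30, adjusted p = 0.210) and LOC102158411 (0.44 ± 0.27, adjusted p = 0.424) overlapped more, and LOC110255503 averaged 0.326 against 0.193 FPKM (exact permutation p = 0.0515, two-sided). The 4 rows summed to 6.15 ± 2.38 FPKM (SD, n = 7) against 2.84 ± 0.80 FPKM (SD, n = 4), with ranges that overlapped.

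Of the 51 alpha and delta variable rows 40 had a read, but the whole set gave only 8 to 160 reads a wound. The most abundant, LOC102165645, reached 0.933 FPKM in diabetic wound 2 and 0.911 FPKM in non-diabetic wound 2 and was at 0 in 3 diabetic wounds and in non-diabetic wound 1 (exact permutation p = 0.585, two-sided). LOC110255269 ranged from 0 to 0.464 FPKM (exact permutation p = 0.906). Segment use was not compared between the groups in this locus, where reads were few. Just outside and inside the level filter, the fourth-highest wound stood at 0.437 to 0.479 FPKM in the 5 nearest rows outside and at 0.620 to 0.702 FPKM in the 5 nearest inside.

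Another 58 rows are described as receptor chains but carry a different biotype, 48 of them with a read and 16 of them tested. In these, 5 heavy chain rows were called higher and 0 rows lower, where 1.35% of all tested genes were called higher and 1.66% lower. Of the 16 tested rows 4, and of the 5 called rows 1, passed the level filter only through the diabetic wounds and had to be higher there. LOC396781, described as IgG heavy chain, was at 48.8 to 212 FPKM (median 121) in diabetic wounds and at 4.87, 11.7, 12.9 and 14.7 FPKM in non-diabetic wounds, for a log2 fold change of 3.45 ± 0.42 (adjusted p = 0.00116). The heavy variable rows LOC110258827 (3.38 ± 0.53, adjusted p = 0.00575) and LOC100038329 (3.57 ± 0.54, adjusted p = 0.00459) averaged 66.2 and 28.2 FPKM in diabetic wounds against 5.98 and 1.91 FPKM, more than any heavy variable row with the segment biotype. LOC100125542 (1.89 ± 0.37, adjusted p = 0.0180) and LOC110258661 (1.60 ± 0.30, adjusted p = 0.0163) were low rows. The former lost its call without non-diabetic wound 1 or 4 and with voom, the latter without non-diabetic wound 1, 2 or 3, and both without diabetic wound 4 and non-diabetic wound 1 (adjusted p = 0.0724 and 0.0787). LOC100038328 spread widely, from 1.27 to 53.0 FPKM in diabetic wounds, and was not called (3.67 ± 0.96, adjusted p = 0.0604).

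LOC100152327, described as immunoglobulin lambda-like polypeptide 5, was at 7.29 to 49.5 FPKM (median 20.6) in diabetic wounds and at 2.21, 15.4, 17.6 and 5.27 FPKM in non-diabetic wounds. It overlapped between groups and was not called (1.27 ± 0.62, adjusted p = 0.302). The T cell receptor constant rows of other biotypes were not called either. Chosen after their values were seen, LOC102160313 of the delta chain was at 1.33 to 4.42 FPKM against 1.28, 1.03, 0.895 and 1.19 FPKM (0.84 ± 0.25, adjusted p = 0.0892), and LOC100621559 of the beta chain averaged 2.08 against 1.73 FPKM (0.08 ± 0.36, adjusted p = 0.935).

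The proteins that work with these chains were called in part. Over all 13956 genes tested, 1.35% were called higher and 1.66% lower, with a median log2 fold change of 0.01. Of 15 genes of the B cell receptor complex and its signalling 14 were in the table and 11 tested, and 3 were called higher with a list median log2 fold change of 0.40. CD79A and CD79B, the signalling partners of surface antibody, changed by 1.74 ± 0.21 (adjusted p = 0.00103) and 1.19 ± 0.25 (adjusted p = 0.0256), and FCRLA, an Fc receptor-like protein inside B cells, by 1.28 ± 0.18 (adjusted p = 0.00319). CD79B lost its call without diabetic wound 3 or 5 or any 1 of the non-diabetic wounds (adjusted p up to 0.0872), with voom (adjusted p = 0.0676) and without diabetic wound 4 and non-diabetic wound 1 (adjusted p = 0.101). CD79A was at 2.50 to 5.69 FPKM in diabetic wounds and at 0.832, 1.31, 0.770 and 0.764 FPKM in non-diabetic wounds. CD81, the most abundant of the list and present on many cell types, was not called (0.40 ± 0.23, adjusted p = 0.387). The B cell marker sum was 3.23 to 9.54 FPKM against 1.16 to 1.66 FPKM.

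Of 14 genes for assembly, transport and Fc receptors of antibody 12 were tested and 4 called higher, with a list median of 0.52. Of all tested genes 1.35% were called higher, and their median was 0.01. The 4 are named here. They were POU2AF1, the octamer coactivator (2.07 ± 0.34, adjusted p = 0.0072), MZB1, an endoplasmic reticulum protein of antibody-secreting cells (1.99 ± 0.35, adjusted p = 0.0117), FCGR2B, the inhibitory IgG receptor (1.53 ± 0.21, adjusted p = 0.00229), and IRF4, a plasma cell transcription factor (1.32 ± 0.24, adjusted p = 0.0125). MZB1 was not called without diabetic wound 4 and non-diabetic wound 1 (adjusted p = 0.0624). XBP1, which drives secretion in plasma cells and in many other cells, was at 121 to 175 FPKM against 149, 146, 120 and 139 FPKM (0.07 ± 0.11, adjusted p = 0.794). Plasma cell markers summed to 96.8 to 184 FPKM against 68.5 to 164 FPKM, with 1 of 5 called.

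JCHAIN, the joining chain that links IgA and IgM into polymers, was at 36.4 to 79.9 FPKM (median 57.3) in diabetic wounds and at 10.9, 45.7, 70.8 and 12.4 FPKM in non-diabetic wounds. Non-diabetic wounds 2 and 3 were high and wounds 1 and 4 low, the same division as in the alpha heavy chain row. JCHAIN was not called (1.03 ± 0.47, adjusted p = 0.270), and it was named after its values were seen.

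Of 9 genes for receptor recombination and class switching 4 were tested and 1 called lower, where 1.66% of all tested genes were called lower. LIG4, the ligase that seals joined segments and other broken DNA, was called lower (log2 fold change −0.55 ± 0.13, adjusted p = 0.0413), at 1.05 to 1.498 FPKM against 1.69, 1.68, 2.78 and 2.13 FPKM, and lost the call in 10 of 11 fits that left out 1 wound, with voom and without diabetic wound 4 and non-diabetic wound 1. UNG was not called (0.10 ± 0.17, adjusted p = 0.821). RAG1 was listed at 0 in every wound.

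Of the surrogate light chain genes 2 of 3 were in the table and 0 were tested. VPREB1 was at 0 to 0.370 FPKM in diabetic wounds and at 0.666, 0.549, 1.00 and 0.163 FPKM in non-diabetic wounds (exact permutation p = 0.0242, two-sided, unadjusted). Of 16 genes of the T cell receptor complex 14 were in the table and 11 tested, with a list median of 0.25 and 0 called by limma (2 at an unadjusted p below 0.05, and 0 called by voom). Limma called 1.35% of all tested genes higher and 1.66% lower. CD3E, a signalling chain of every T cell receptor, was at 4.08 to 11.5 FPKM against 3.91, 3.90, 4.76 and 6.63 FPKM (0.25 ± 0.25, adjusted p = 0.653). Summed lymph node stroma markers overlapped between the groups, at 34.3 to 83.0 FPKM against 49.3 to 79.2 FPKM.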

How the data were processed

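Bulk poly(A) RNA-seq libraries of 7 diabetic and 4 non-diabetic wounds were analysed from 1 deposited table of FPKM values per gene, with whole-number fragment counts behind them: whole reads could be recovered for 100% of values (tolerance 0.05). The submitters' processing notes name fastp, HISAT2 2.2.1, StringTie 2.2.3, featureCounts 2.0.6 and Sscrofa11.1. The authors used a directional library kit, but the strand setting and the treatment of reads that match several places are not given in the sources used here, so reads of near-identical segments and of overlapping rows may be lost or shared. All 137 rows had the same coordinates in the RefSeq annotation of Sscrofa11.1. The table had 0 value columns without a sample.

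Genes that reached 0.5 FPKM in 4 or more libraries were tested with limma 3.58.1 (R 4.3.3, trended variance) on log2(FPKM + 0.5), all 11 libraries, with Benjamini-Hochberg adjustment over all tested genes. Fold changes on that scale understate the change of low rows. Rows below the filter were compared by exact two-sided permutation over 330 splits, whose smallest p is 0.00303. Sums and shares over rows were not tested. Sequence, tables and figures used Python 3.11.15 with pandas 2.3.3, Biopython 1.88, pyfaidx 0.9.0.4, SciPy 1.17.1, matplotlib 3.10.9 and numpy 2.4.6. The limma step was tested on simulated data. Alternatives were other pseudocounts, filters and scalings, voom on recovered reads, library weights, the letter in the library names as a covariate, a replicate block, and leaving out wounds.

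The members, lists and tests were chosen with earlier results of these data known. Named rows were every constant row, the 5 variable rows of each locus with the largest mean, up to 10 called variable rows with the largest change, the most changed tested variable row of each locus, the 5 most abundant and up to 5 called rows of other biotypes, and the called and the most abundant members of each partner list.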

Additional observations from a re-analysis of the deposited data

Results flagged for a closer look

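In 152 groups of 4 or 7 wounds, 20 had a wound far from the rest by Dixon's criterion on FPKM or percent values. Chance gives about 1 in 20 groups only for normally distributed values. FPKM is skewed, and 1 wound above 0 among wounds at 0 is always flagged. The count therefore cannot be read against that rate. Among heavy variable rows these were LOC110258662 in diabetic wound 6 (33.7 FPKM), LOC110258831 in diabetic wound 4 (14.6 FPKM) and LOC110258826 in diabetic wound 5 (8.01 FPKM) and non-diabetic wound 4 (0.0371 FPKM, 1 read). Among kappa rows they were LOC110258447 in diabetic wound 6 (18.9 FPKM) and non-diabetic wound 2 (0.252 FPKM), and LOC110258394 in non-diabetic wound 2 (0.562 FPKM). The lambda row LOC100623458 stood apart in non-diabetic wound 3 (0.258 FPKM). Among heavy constant rows LOC110258348 did so in non-diabetic wound 1 (0.0177 FPKM) and LOC110258369 in non-diabetic wound 3 (0.709 FPKM). Heavy chain rows of other biotypes were LOC100038329 in non-diabetic wound 3 (4.66 FPKM) and LOC100038328 in non-diabetic wound 4 (4.99 FPKM).

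Diabetic wound 2 stood apart in the T cell receptor beta constant row LOC102167789 (5.45 FPKM), in the summed beta locus (9.77 FPKM) and in CD3E (11.5 FPKM). Low T cell receptor variable rows were LOC102160153 in non-diabetic wound 1 (0.25 FPKM), LOC102162433 in diabetic wound 4 (0.12 FPKM) and non-diabetic wound 2 (0.481 FPKM), and LOC110257616 in diabetic wound 7 (0.927 FPKM). CD79A stood apart in non-diabetic wound 2 (1.31 FPKM).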

How the results depend on the processing

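The count of receptor rows called higher (19) was 10 with voom on recovered reads, 6 with a replicate block and 10 without diabetic wound 4 and non-diabetic wound 1, and ran from 11 to 20 when single wounds were left out. Over all genes, library weights gave 406 higher and 416 lower, the replicate block 11 and 5, leaving out diabetic wound 4 and non-diabetic wound 1 106 and 81, and leaving out single wounds 104 to 236 and 75 to 247. Partner genes called higher numbered 0 under the block and 6 to 9 when single wounds were left out. The 1 partner gene called lower fell to 0 with a pseudocount of 1, no filter, the same FPKM sum per library, voom, the block, the letter covariate and without diabetic wound 4 and non-diabetic wound 1, and to 0 or 1 when single wounds were left out. Replicate numbers did not pair the wounds, since same-numbered deviations correlated at −0.27, 0.22, 0.07 and −0.48, and diabetic wounds 5 to 7 share no number with a non-diabetic wound. The mean alpha share differed by −40.9 percentage points by reads and −31.1 by FPKM. LOC102167789 turned to −0.13 with library weights, −0.05 without diabetic wound 2, −0.11 and −0.08 without non-diabetic wounds 1 and 2 and −0.027 without diabetic wound 4 and non-diabetic wound 1 (0.46 at most, without non-diabetic wound 3). XBP1 turned to −0.026 with quantile normalization and −0.00549 with the same FPKM sum per library, and UNG to −0.018 with library weights. The cause of these changes was not tested. All 98 values of locus sums, and 82 of 83 values of shares, moved by less than 1 pooled within-group SD. Leaving out a single wound cannot move such a difference by 1 SD, whatever the values. Only the rescaled values and those without the most abundant row bear on stability. The T cell receptor variable rows had few reads in every wound.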

Other observations

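The order of wounds was shared by many immunoglobulin rows. In 12 of the 19 called rows diabetic wounds 1 and 2 were the lowest of their group, against 16 of all 37 tested immunoglobulin rows. Of the 19 called rows 8 were highest in diabetic wound 5, 4 each in wounds 3 and 4, 2 in wound 6 and 1 in wound 7. Non-diabetic wound 1 was lowest of its group in 12 of the 19 rows, and non-diabetic wound 2 or 3 was highest in 16. The called rows were chosen by the contrast between the groups, in a test that also depends on the spread within them.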
